A study of Homo sapiens with 94 samples.

Results

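The tumors compared here are the 10 xenografts of the 3-6 h study that received K-975 at 200 mg/kg, 5 in cage group 4 and 5 in cage group 5, chosen by the cage group and treatment in the sample labels out of 94 tumors in the series. Both groups carried the same cell line, received the same single oral dose in the same volume of 20 mL/kg and were sampled in the same study, so a direct contrast of cage group 5 with cage group 4 holds drug and dose constant. The study covers 3 h and 6 h after dosing, and the sampling time of either cage group is not in the labels. The sample titles number cage groups 4 and 5 in 2 separate runs, and what the runs stand for is not in the labels. A difference between the cage groups can therefore be one of time, of cage, of numbering run or of the individual mice. These cannot be told apart here. Each tumor was grown under the skin of a female SCID mouse from NCI-H226, an established human malignant pleural mesothelioma line with a deletion of NF2. The study at 3-6 h holds 45 tumors in 9 cage groups of 5: untreated (cage group 1), vehicle of ethanol, Solutol and glucose solution at 20 mL/kg (2 and 3), K-975 at 200 mg/kg (4 and 5), 100 mg/kg (6 and 7) and 30 mg/kg (8 and 9), the lower doses in 10 mL/kg. In the title numbering, cage groups 1, 2, 4, 6 and 8 form the lower run and 3, 5, 7 and 9 the higher one. All cells of the line lack NF2 in every group, vehicle included, and 1 cell line stands for the disease.

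NF2 feeds into the Hippo pathway, a kinase cascade in which STK3, STK4, LATS1 and LATS2 phosphorylate the co-activators YAP1 and WWTR1 (TAZ) and keep them out of the nucleus. When the cascade is off, YAP1 and TAZ enter the nucleus, bind TEAD transcription factors and raise genes such as CCN1, CCN2, ANKRD1 and AMOTL2. TEAD proteins carry a palmitate in a central lipid pocket, and K-975 binds covalently in that pocket and blocks palmitoylation.

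Expression values are FPKM, mapped fragments scaled to transcript length and library size, and differences are given on the log2(FPKM + 1) scale, on which changes of weakly expressed genes are understated. The 10 libraries held 11385 to 11646 genes at an FPKM of at least 1. Genes listed at 0 numbered 6171 to 6601 in cage group 4 and 6615 to 6914 in cage group 5, ranges that do not overlap. They numbered 6503 to 6912 and 6662 to 7103 in vehicle cage groups 2 and 3. The ranges were 6319 to 6858 and 6708 to 7386 at 100 mg/kg (cage groups 6 and 7), and 6577 to 6946 and 6505 to 6696 at 30 mg/kg (8 and 9). The part of the genes at 0 in the differences below was not tested. Read depth is unknown, since the table holds no counts. Mesothelial markers such as MSLN and KRT19 were present in all 10 tumors: the summed FPKM of 12 markers was 3701 to 4923 in cage group 5 and 4099 to 4478 in cage group 4. BAP1, a tumor suppressor in that list, was listed at 0 in all 10.

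TEAD proteins act from DNA, and the promoter windows of the genes on which the comparison turns are shown first. RefSeq windows (GRCh38.p14) run from 250 bases before to 50 bases after an annotated start. The core TEAD motif GGAATG, on either strand (CATTCC), is in capitals. CCN2, ANKRD1 and AMOTL2 are shown as textbook TEAD targets, and PROSER2 and PTPN1 as the only genes past the threshold between the cage groups.
CCN2 (chr6:131951323-131951622, minus strand): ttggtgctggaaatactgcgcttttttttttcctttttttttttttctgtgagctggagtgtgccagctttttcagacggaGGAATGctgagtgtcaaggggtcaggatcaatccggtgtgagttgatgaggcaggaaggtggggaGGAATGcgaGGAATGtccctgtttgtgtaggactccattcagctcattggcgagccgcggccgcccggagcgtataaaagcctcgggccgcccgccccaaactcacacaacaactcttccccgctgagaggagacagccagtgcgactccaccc
ANKRD1 (chr10:90921038-90921337, minus strand): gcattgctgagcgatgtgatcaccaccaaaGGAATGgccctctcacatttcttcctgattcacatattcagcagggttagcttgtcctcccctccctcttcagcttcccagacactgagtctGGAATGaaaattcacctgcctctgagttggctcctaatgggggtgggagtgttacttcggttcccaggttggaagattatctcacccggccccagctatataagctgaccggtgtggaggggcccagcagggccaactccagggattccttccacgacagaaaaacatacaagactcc
AMOTL2 (chr3:134374398-134374697, minus strand): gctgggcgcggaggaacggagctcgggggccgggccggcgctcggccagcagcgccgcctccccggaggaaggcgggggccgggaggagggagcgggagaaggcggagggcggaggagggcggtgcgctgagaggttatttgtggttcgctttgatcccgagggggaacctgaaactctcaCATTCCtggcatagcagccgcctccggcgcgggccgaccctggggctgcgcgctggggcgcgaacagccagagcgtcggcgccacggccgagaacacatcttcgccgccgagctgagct
PROSER2 (chr10:11823106-11823405, plus strand): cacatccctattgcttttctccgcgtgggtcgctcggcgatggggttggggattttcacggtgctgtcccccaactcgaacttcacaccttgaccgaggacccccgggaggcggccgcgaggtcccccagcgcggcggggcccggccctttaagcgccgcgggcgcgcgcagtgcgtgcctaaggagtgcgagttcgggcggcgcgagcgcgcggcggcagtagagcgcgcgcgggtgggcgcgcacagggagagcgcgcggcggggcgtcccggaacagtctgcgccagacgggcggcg
PTPN1 (chr20:50510133-50510432, plus strand): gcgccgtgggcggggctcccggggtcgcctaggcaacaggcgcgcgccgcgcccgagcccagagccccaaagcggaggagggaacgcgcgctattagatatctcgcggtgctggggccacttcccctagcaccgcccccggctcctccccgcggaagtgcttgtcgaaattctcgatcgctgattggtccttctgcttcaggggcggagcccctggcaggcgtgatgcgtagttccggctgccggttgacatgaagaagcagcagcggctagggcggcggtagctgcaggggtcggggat
CCN2 holds 3 copies of the motif, ANKRD1 holds 2, and the AMOTL2 window printed holds 1, while the window of another AMOTL2 start holds 0. Over all 35116 windows, 14.0% hold at least 1 copy, and over windows of tested genes 11.5%, against 7 of 15 windows (46.7%) of YAP-TEAD pathway genes. That list includes known TEAD targets, so its share is a description. Other lists ran from 0% (heat shock) to 71.4% (muscle markers, 5 of 7 windows). PROSER2 and PTPN1 hold 0 copies in these windows, which says only that these letters are absent from them.

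Across 12518 genes, 2 differed between cage groups 5 and 4 at an adjusted p under 0.05 (0.0160% of genes tested), and both were lower in cage group 5. At an unadjusted p under 0.05 there were 874 genes, 466 higher and 408 lower in cage group 5 (6.98% of genes tested, 3.72% higher and 3.26% lower). The median log2 difference over all genes was 0.0096, and the median absolute difference was 0.12. In 137 genes (1.09%) the 5 tumors of one cage group all lay on one side of the other 5, with 55 genes higher (0.439%) and 82 lower (0.655%) in cage group 5. The same contrast was made at the other doses. Between the 100 mg/kg cage groups 7 and 6, 0 genes passed in limma (0.00%), with 912 at an unadjusted p under 0.05 (7.29%), and between the 30 mg/kg cage groups 9 and 8, 0 passed (0.00%), with 774 (6.18%) at an unadjusted p under 0.05. Between the vehicle cage groups 3 and 2, 6 genes passed (0.0479%) and 1209 (9.66%) had an unadjusted p under 0.05.

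PTPN1 (ENSG00000196396.9, chromosome 20, 50510321-50585241, plus strand), a protein tyrosine phosphatase that acts on insulin and leptin receptor signaling, was lower in cage group 5. Its FPKM in the 5 tumors of cage group 5 was 40.3, 47.0, 47.5, 48.8 and 49.3, and in cage group 4 it was 54.3, 58.9, 60.0, 61.9 and 67.2. No tumor of cage group 5 reached the lowest of cage group 4. The means were 46.5 ± 3.64 and 60.5 ± 4.69 (SD, n = 5 each). The log2 difference was -0.37 (SE 0.0699, 95% interval -0.51 to -0.23, adjusted p = 0.0316, limma). The 10 vehicle tumors ranged from 54.7 to 66.1 with a median of 56.9, so all 5 tumors of cage group 5 also lay below every vehicle tumor, whereas cage group 4 lay within or above that range except for 1 tumor.

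PROSER2 (ENSG00000148426.12, chromosome 10, 11823339-11872277, plus strand) encodes a proline- and serine-rich protein. It was at 19.1, 30.1, 30.7, 32.0 and 32.2 FPKM in cage group 5 and at 40.1, 44.0, 46.2, 50.1 and 61.4 in cage group 4, again with no overlap. The lowest value belonged to replicate 4 of cage group 5. The log2 difference was -0.74 (SE 0.140, 95% interval -1.02 to -0.45, adjusted p = 0.0316, limma). Vehicle tumors ranged from 32.4 to 57.2 with a median of 43.9, and all 5 tumors of cage group 5 were below them. PROSER2 overlaps the antisense gene PROSER2-AS1 and PTPN1 overlaps the antisense gene AL133230.1, and whether fragments were counted by strand is not given in the sources used here. Both calls depended on the tumors and libraries that entered the fit. Without replicate 4 of cage group 5 the differences were -0.60 for PROSER2 and -0.32 for PTPN1, each with an adjusted p of 0.249 in limma. The count of called genes was 0 without replicate 2, 3 or 5 of cage group 4 and without replicate 2, 3, 4 or 5 of cage group 5, 1 without replicate 1 of cage group 4 and 3 without its replicate 4. It was 0 as well when only the 10 tumors were fitted, with log2 differences of -0.74 and -0.37 as before.

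None of the 14 YAP-TEAD pathway genes passed the threshold between the cage groups. Of the 14, 12 had a log2 difference below 0 in cage group 5, where 47.7% of all genes did, and the median was -0.20, beside 0.01 over all genes. In the list 3 genes had an unadjusted p under 0.05, namely AMOTL2, ANKRD1 and CRIM1, all lower, where 3.26% of all genes were lower at that p. Leaving out 1 tumor gave medians of -0.24 to -0.15. The list was drawn up with earlier results of these tumors known, so its direction is a description.

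Among the target genes, AMOTL2, an angiomotin family protein that holds YAP1 in the cytoplasm, was at 14.0, 14.1, 17.0, 17.4 and 21.3 FPKM in cage group 5 and at 17.4, 20.7, 21.1, 23.2 and 28.5 in cage group 4. Its log2 difference was -0.38 (SE 0.129, unadjusted p = 0.00494, adjusted p = 0.488, limma), and 3 of 5 tumors of cage group 5 lay below all of cage group 4. ANKRD1, a nuclear ankyrin repeat protein, was weakly expressed, at 0, 0.202, 0.224, 0.352 and 0.973 FPKM in cage group 5 and 0.285, 0.971, 1.08, 1.35 and 1.68 in cage group 4. Its log2 difference was -0.62 (SE 0.217, adjusted p = 0.511, limma), the lowest of the list. CRIM1, a transmembrane protein that binds BMP ligands, separated the groups fully, at 255, 265, 276, 285 and 292 in cage group 5 and 292, 295, 303, 308 and 330.4 in cage group 4. That separation was small, with a log2 difference of -0.16 (SE 0.0714, adjusted p = 0.688, limma).

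CCN1, a secreted matricellular protein, was at 83.2, 103, 108, 128 and 140.2 FPKM in cage group 5 and 95.0, 110.4, 133, 157 and 195 in cage group 4. These ranges overlapped, and the log2 difference of -0.27 had a 95% interval of -0.58 to 0.04 (adjusted p = 0.820, limma). CCN2, its relative with the 3 motif copies printed above, was at 4.41, 4.61, 5.39, 5.65 and 8.28 in cage group 5 and 5.53, 5.63, 6.06, 7.08 and 7.71 in cage group 4. Its difference of -0.17 had an interval of -0.58 to 0.24, which includes 0. AJUBA and LATS2, which act in feedback within the pathway, differed by -0.21 (-0.41 to 0.00) and -0.29 (-0.66 to 0.08). AXL, a receptor tyrosine kinase, differed by -0.16 (-0.38 to 0.06).

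Of the transcription factors and co-activators themselves, TEAD4 was 32.7 ± 3.82 FPKM in cage group 5 and 39.4 ± 3.30 in cage group 4 (SD, n = 5 each), with 4 of 5 tumors below all of cage group 4 and a log2 difference of -0.26 (-0.53 to 0.00). TEAD3 differed by -0.21 (-0.48 to 0.07) and TEAD2 by -0.19 (-0.62 to 0.23). TEAD1, the family member at the highest FPKM, differed by 0.02 (-0.17 to 0.21), and YAP1 by -0.03 (-0.20 to 0.14). WWTR1 was the other gene above 0, at 0.18 (-0.25 to 0.61).

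Set against the 10 vehicle tumors of the study, the cage groups gave different numbers of calls. These contrasts share their vehicle tumors, so the values are given side by side, and the contrast of cage group 5 with cage group 4 is the test of their difference. Cage group 5 had 21 genes past the threshold (0.168%), 18 lower and 3 higher, and cage group 4 had 0 (0.00%), with 593 genes (4.74%) at an unadjusted p under 0.05 in limma. CCN1 was -0.86 against vehicle on the log2 scale in cage group 5 (SE 0.133, adjusted p = 6.16e-04, limma) and -0.59 in cage group 4 (SE 0.133, adjusted p = 0.170). AMOTL2 was -0.72 (adjusted p = 6.16e-04, limma) and -0.34 (adjusted p = 0.815), and ANKRD1 was -0.87 (adjusted p = 0.0381) and -0.25 (adjusted p = 0.995). AJUBA was -0.47 (adjusted p = 0.0108, limma) and -0.27 (adjusted p = 0.827). PTPN1 and PROSER2 were among the 21, at -0.33 and -0.59 in cage group 5, beside 0.04 and 0.15 in cage group 4. CCN2 passed in neither, at -0.71 and -0.54. Vehicle cage groups 2 and 3 were pooled here, and their levels were not the same. AJUBA was at 56.4 to 75.1 FPKM in vehicle cage group 2 and 46.7 to 66.9 in 3. AMOTL2 was at 26.5 to 35.55 and 22.3 to 30.2, and CCN1 at 148 to 271 and 188 to 253. The sizes given for cage groups 5 and 4 thus depend on the pooling, and contrasts within a numbering run were not tested.

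Counted by tumor, CCN1 in all 5 tumors of cage group 5 and in 3 of 5 of cage group 4 was below every vehicle tumor, where the lowest was 148 FPKM. AMOTL2 gave the same counts against a lowest vehicle value of 22.3 FPKM. For CCN2, 4 of 5 tumors in each cage group were below the lowest vehicle tumor at 7.70 FPKM. Separation of a whole cage group below vehicle occurred in 24 genes (0.192%) for cage group 5 and in 0 (0.00%) for cage group 4. The count of 21 genes in cage group 5 was 3, 13 and 8 without its replicate 2, 3 and 4, 7 and 9 without replicate 3 and 5 of vehicle cage group 2, and 13 without replicate 1 of vehicle cage group 3.

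The remaining genes past the threshold against vehicle in cage group 5, other than SKP2 and VGLL3, were named after their values had been seen. They are listed for their gap to vehicle, and both contrasts use the same tumors of cage group 5. A gap to cage group 4 in the same direction is thus no separate evidence. PPME1, a methylesterase of the phosphatase PP2A, was -0.89 against vehicle and -0.67 against cage group 4. CYP26A1, which degrades retinoic acid, was -1.39 and -1.13 on the same contrasts. SKP2, the substrate receptor of a ubiquitin ligase that targets CDKN1B, was -0.60 and -0.55. PKP2, a plakophilin of desmosomes, was -0.65 and -0.53, and VGLL3, a cofactor that binds TEAD, was -0.38 and -0.36. TRIM58, TUFT1, ADAMTS15, KCND3, RUSC2, PPRC1 and ARHGEF10 were the other lower genes, and VPS51, FHOD3 and LRRC56 were the 3 higher ones, with LRRC56 at 0.67 against vehicle and 0.44 against cage group 4.

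Beyond the 2 called genes, the lower genes with the smallest p between the cage groups were not past the threshold. SKP2 was at 66.7, 74.0, 76.2, 78.5 and 86.6 FPKM in cage group 5 and 99.9, 104, 104, 119 and 135 in cage group 4. The groups were apart, with a log2 difference of -0.55 (SE 0.132, adjusted p = 0.291, limma). BCAR1, the adhesion scaffold p130Cas, was at 139, 140.3, 144, 148 and 151 in cage group 5 and 154, 163, 165, 168 and 171 in cage group 4, a log2 difference of only -0.18 (adjusted p = 0.200, limma). PLAA, which serves ubiquitin-dependent protein turnover, was also fully separated, at -0.57. LAMA5, a laminin chain of basement membranes, LETM1, a protein of the mitochondrial inner membrane, USP2, a deubiquitinase, and TGIF2, a repressor in TGF-beta signaling, were -0.28, -0.51, -0.86 and -0.67, each with 4 of 5 tumors below all of cage group 4.

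No gene passed the threshold in the higher direction, and the 10 with the smallest p are given as values. BTN3A2, a butyrophilin of the immunoglobulin superfamily, was at 28.7, 30.2, 32.0, 37.5 and 41.5 FPKM in cage group 5 and 18.8, 20.4, 21.5, 24.1 and 28.6 in cage group 4. The groups did not overlap, and the log2 difference was 0.56 (SE 0.121, adjusted p = 0.129, limma). Against vehicle, cage group 5 was 0.25 and cage group 4 was -0.32. PTCHD4, a patched-domain protein, was at 5.46 ± 0.528 in cage group 5 and 2.83 ± 0.684 in cage group 4 (SD, n = 5 each). THAP2, a zinc finger protein, was at 3.09 ± 0.833 and 0.750 ± 0.221 on the same groups, but 0.36 and -0.86 against vehicle, where 4 of 5 tumors of cage group 4 were below every vehicle tumor. AGPAT2, an enzyme of phosphatidic acid synthesis, and ARL6IP4, a splicing regulator, were fully separated at 0.37 and 0.27. MBD2, a reader of methylated DNA, was 0.88, MMP16, a membrane metalloproteinase, 0.95, ST3GAL4, a sialyltransferase, 0.55, and FHIP1B 0.60, each with 4 of 5 tumors above all of cage group 4. THAP2, PLAA, ARL6IP4 and TGIF2 overlap other protein-coding genes, so their fragments may be shared.

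SESN1, a stress-induced sestrin that restrains mTORC1, was the tenth gene of that set and a member of the p53 target list. It was at 9.02, 10.8, 12.2, 13.1 and 13.7 FPKM in cage group 5 and 3.58, 4.80, 5.37, 6.86 and 7.67 in cage group 4. Every tumor of cage group 5 was above every tumor of cage group 4, and the log2 difference was 0.96 (SE 0.246, adjusted p = 0.354, limma). Against vehicle, SESN1 was 0.82 in cage group 5 and -0.14 in cage group 4.

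The p53 targets had the highest median of the lists with at least 10 genes tested. The list holds 15 genes that p53 activates in response to DNA damage and other stress, of which 14 passed the filter on low values, while GDF15 was listed at 0 in all 10 tumors. Of the 14, 12 had a log2 difference above 0, where 52.3% of all genes did, and the median was 0.19. At an unadjusted p under 0.05 there were 6 higher genes and 0 lower of the 14, beside 3.72% higher and 3.26% lower over all genes, and 0 passed the adjusted threshold. The median was 0.12 without replicate 3 of cage group 5, with 12 genes still above 0, and 0.25 without its replicate 2. MDM2, the ubiquitin ligase that degrades p53, was at 185, 212, 224, 248 and 249 FPKM in cage group 5 and 157, 173, 173, 183 and 205 in cage group 4, so that 4 of 5 tumors were above all of cage group 4. Its log2 difference was 0.32 (SE 0.106, adjusted p = 0.488, limma). FDXR, ferredoxin reductase of mitochondria, was 0.32. Named after their values had been seen, CDKN1A, the cell cycle inhibitor p21, was 0.32, FAS, a death receptor, 0.24, and BAX, an apoptosis effector, 0.17, while the 2 genes below 0, SESN2 and GADD45A, were both -0.07. Between the vehicle cage groups 3 and 2, the median of the same list was 0.06, with 2 genes at an unadjusted p under 0.05.

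The effector genes that the study uses to score YAP1-TEAD activity were split by sign. Of 249 positive effectors 237 passed the filter, and 166 of them (70.0%) were below 0, with a median of -0.07. At an unadjusted p under 0.05, 21 were lower and 2 higher (3.26% and 3.72% of all genes), and 6 were fully separated in the lower direction (0.655% of all genes). The median was -0.04 without replicate 4 of cage group 5. Among the 6 separated genes, GADD45B, a stress-induced growth arrest protein, was -0.76, THBS1, a matricellular protein, -0.56, and ROR1, a receptor for WNT5A, -0.32. They were named after their values had been seen. WWC1, the Hippo regulator KIBRA, was -0.21, and its groups overlapped. Its highest tumor in cage group 5 was at 341 FPKM and its lowest in cage group 4 at 336. CENPI and LMCD1 were the 2 positive effectors that were higher at that p, at 0.78 and 0.61. Of 233 negative effectors 188 passed, and 126 of them (67.0%) were above 0, with a median of 0.07. Here 5 were higher and 5 lower at an unadjusted p under 0.05, together 5.32% of the 188 beside 6.98% of all genes, and 0 of either list passed the adjusted threshold. Between the vehicle cage groups the medians were 0.02 for positive and -0.01 for negative effectors.

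The deR score summarizes these lists in each tumor as the mean fractional rank of positive minus negative effectors, ranked among the effectors. It was 0.166, 0.194, 0.195, 0.197 and 0.204 in cage group 5 and 0.199, 0.201, 0.201, 0.205 and 0.229 in cage group 4. Of the 5 tumors in cage group 5, 4 were below all of cage group 4, and replicate 4 was lowest. The means were 0.191 ± 0.0146 and 0.207 ± 0.0128 (SD, n = 5 each). The difference was -0.0156, and by a two-sided exact permutation test its p was 0.0476 (adjusted p = 0.0952, for 2 score tests). The smallest p this design allows is 0.00794. Without replicate 4 of cage group 5 the difference was -0.00925 (adjusted exact permutation p = 0.317), without replicate 3 of cage group 4 it was -0.00995 (0.349), and without replicate 3 of cage group 5 it was -0.0187 and passed (0.0159). The vehicle cage groups 3 and 2 differed by 0.00403. Vehicle tumors of the study ranged from 0.185 to 0.234 with a mean of 0.211, and 1 tumor of cage group 5 lay below all of them.

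A second score used 258 genes higher and 257 lower at 200 mg/kg than in vehicle at 24 h, chosen on tumors of the 24 h study alone. In cage group 5 it was -1.06, -1.04, -0.918, -0.902 and -0.305, and in cage group 4 it was -1.44, -1.12, -1.01, -0.929 and -0.864, where higher values lie nearer to the state at 24 h. The groups overlapped apart from replicate 4 of cage group 5. The difference was 0.227 (two-sided exact permutation p = 0.278, adjusted p = 0.278), and the vehicle cage groups 3 and 2 differed by -0.255. It was 0.0922 without replicate 4 of cage group 5 and 0.136 without replicate 3 of cage group 4.

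Within the Hippo list (18 regulators, 17 tested), 3 genes were lower at an unadjusted p under 0.05 and 0 were higher, beside 3.26% and 3.72% of all genes. VGLL3 was at 95.3, 119, 119, 124 and 128 FPKM in cage group 5 and 138, 145, 146, 159.7 and 162 in cage group 4, fully separated, with a log2 difference of -0.36 (SE 0.0969, adjusted p = 0.403, limma). WWC1 and AMOTL2 were the others. The median of the list was -0.02.

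No gene of the clock, glucocorticoid and fasting lists, which answer to time of day, stress hormone and feeding, passed the threshold, and the members with the smallest p are given as values. PER1, a clock gene that is also induced by glucocorticoid, was at 10.5, 10.5, 11.3, 11.4 and 14.1 FPKM in cage group 5 and 9.75, 22.0, 26.3, 46.8 and 49.6 in cage group 4. The tumors of cage group 5 lay close together, whereas cage group 4 held both the lowest value and the 4 highest. The log2 difference was -1.15 (SE 0.386, adjusted p = 0.488, limma). KLF9, induced by the same hormone, was at 1.03 ± 0.339 and 1.60 ± 0.391 (SD, n = 5 each), and 11 of 13 genes of the glucocorticoid list were below 0, with a median of -0.23. That median was -0.14 without replicate 2 and -0.36 without replicate 4 of cage group 4. It was also -0.36 without replicate 2 of cage group 5. Between vehicle cage groups 3 and 2 the same list had a median of 0.36, with 12 of 13 genes above 0 and 6 higher at an unadjusted p under 0.05. In the clock list 10 of 17 were below 0 with a median of -0.04, CRY1 was -0.44 and NR1D1 -0.35. In the fasting list 2 of 10 genes tested were higher at an unadjusted p under 0.05 and 0 lower, beside 3.72% and 3.26% of all genes. They were SESN1 and CPT1A, the gate of fatty acid import into mitochondria, with CPT1A at 0.25. The list had 5 genes above 0 and 5 below, with a median of -0.0013.

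Other signaling and stress lists had 0 genes past the threshold. Leaving out 1 tumor changed the sign of the median in 14 of the 23 lists with at least 10 genes tested, and moved it by over 1.5 times in a further 7. Immediate early genes had a median of -0.04, with FOSL2 at -0.21 and KLF10 at -0.29. ETV4, an ETS factor downstream of ERK, was 0.54, and the MAPK feedback list had a median of 0.08. NQO1, a quinone reductase controlled by NRF2, was at 61.3, 70.5, 70.9, 73.6 and 76.6 FPKM in cage group 5 and 45.3, 51.4, 54.8, 59.7 and 69.7 in cage group 4, with a log2 difference of 0.33 (adjusted p = 0.472, limma). The other 12 NRF2 genes tested had 0 members at an unadjusted p under 0.05. Of the 13 tested, 6 were above 0, with a median of -0.01. DNAJB9, a chaperone of the endoplasmic reticulum, was 0.63, in a stress response list with 8 of 18 genes above 0 and a median of -0.0048. MSMO1, a sterol synthesis enzyme, was 0.29, in a list with 11 of 19 genes above 0 and a median of 0.02. Inflammatory cytokines had a median of -0.23 with 0 of 18 genes at an unadjusted p under 0.05, and CXCL2 had an interval of -2.12 to 0.78. The cytokine median was 0.04, with 11 of 18 genes above 0, without replicate 4 of cage group 5. It was -0.45 without replicate 2 of cage group 5 and -0.02 without replicate 2 of cage group 4, so that its sign and size rested on single tumors. Between vehicle cage groups 3 and 2 it was 0.88. G1/S genes had a median of -0.08 and G2/M genes of 0.10, again with 0 of 20 genes each at that p, and the G2/M median was -0.01 without replicate 3 of cage group 5. TGF-beta genes (-0.11), actin and SRF genes (-0.02), interferon genes (0.02), heat shock genes (0.06) and fatty acid synthesis genes (0.00) had 0 genes at that p as well, and of 11 metallothioneins 4 were tested, with a median of 0.09.

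Hypoxia and glycolysis genes differed little between the 200 mg/kg cage groups and more between the vehicle cage groups, and for the list as a whole the difference of these gaps was not tested. Between cage groups 5 and 4, 0 of 22 had an unadjusted p under 0.05 and the median was 0.02. Between vehicle cage groups 3 and 2, 20 of 22 had one, all higher in cage group 3 (4.92% of all genes were higher at that p), and the median was 0.49. The 6 genes called between the vehicle cage groups, named after their values had been seen, were FNDC3B, FNIP1, HKDC1, PFKFB4, MAFF and FBXO32. Between cage groups 5 and 4 they were 0.08, 0.25, 0.05, 0.14, 0.15 and 0.47, and 0 passed.

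Whether the gap between cage groups 5 and 4 differed from that between the vehicle cage groups was tested as a difference of differences. Both orientations were used, since the labels do not match a vehicle cage group to a 200 mg/kg one. Title numbering puts vehicle cage group 2 in the run of cage group 4 and vehicle cage group 3 in that of cage group 5. Against vehicle 3 minus 2, 0 genes passed in limma (0.00%), with 1000 (7.99%) at an unadjusted p under 0.05. Against vehicle 2 minus 3, which adds the vehicle 3 minus 2 gap to the gap at 200 mg/kg, 8 passed (0.0639%). PTPN1 and PROSER2 were -0.03 and 0.00 between vehicle cage groups 3 and 2, and they passed in neither test of the difference (adjusted p = 0.405 and 0.287 for vehicle 3 minus 2, and 0.143 and 0.187 for vehicle 2 minus 3, limma).

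Summed levels of markers of other cells overlapped between the cage groups. The tumors grew in mice and the values are for human genes. How fragments from mouse stroma were handled is not given in the sources used here, so these sums cannot show whether host cells changed. In a bulk tumor fewer cells of a type and less RNA per cell also cannot be told apart. The summed FPKM of 9 fibroblast markers was 798 to 1025 in cage group 5 and 618 to 972 in cage group 4, with COL1A2 and DPT at 0. The sum of 8 endothelial markers, mostly KDR, was 62.0 to 107 and 58.4 to 138, with ERG, CLDN5 and EMCN at 0. The sum of 9 macrophage and immune markers, mostly CD68, was 87.4 to 173 and 124 to 193, with CD163, LYZ, TYROBP, AIF1 and C1QA at 0. Erythroid, muscle, and skin and fat markers summed to at most 4.32, 3.00 and 28.7 FPKM in any of the 10 tumors.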

How the data were processed

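RNA of NCI-H226 xenograft tumors was preserved in RNAlater, and libraries were made with a KAPA RNA HyperPrep kit, enriched for target sequences by hybrid capture and sequenced paired-end. The authors deposited 1 table of FPKM values for 94 tumors. The submitters' processing notes name STAR and GRCh38; the quantifier and the handling of mouse reads are not given in the sources used here. For gene IDs with several entries the longest locus was kept, which left 20239 of 20555 entries, and 32 blank cells were read as 0.

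Genes reaching an FPKM of 1 in 5 or more of the 45 libraries of the 3-6 h study (12518 genes) were tested on log2(FPKM + 1) with limma 3.58.1 in R 4.3.3 (lmFit, then robust eBayes with a trend). The model held 1 coefficient for every cage group, and p-values were adjusted by Benjamini-Hochberg at 0.05. All 9 cage groups shared 1 estimate of the spread. In simulated data for cage groups 5 and 4 over 12518 genes, 36 of 100 genes changed by 0.5 and 82 of 100 changed by 1.0 on the log2 scale were called, with 6 false calls. The changed genes were drawn only from those above a floor of mean expression, so recovery of weakly expressed genes is not covered. The simulated noise was normal, independent between tumors and held no cage effect or outlying tumor. With 100 genes changed at each size, the adjusted threshold is easier to pass than where only 2 genes are called. The shares recovered can therefore be too high for the real contrast. The 24 h score genes came from a fit of 22 libraries at 24 h (12077 genes). Scores were compared by exact two-sided permutation.

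Replicates were numbered in accession order and are separate tumors. Genes were named by a rule: the YAP-TEAD pathway list, up to 12 called genes in each direction, at least 10 in each direction filled by unadjusted p, and the 3 members of each list with the smallest p; others are marked, and 1 gene the rule names is not reported here. The cage groups compared, the lists and the rule were chosen with earlier results of these data known. Gene loci are as in the table, with 1 added to the start, and 15629 then equal GENCODE 29.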

Additional observations from a re-analysis of the deposited data

Results flagged for a closer look

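Among the genes named by the rule and the 2 scores, a tumor stood apart from the other 4 of its cage group in 26 of 216 groups of 5 (12%), by a gap above the Dixon limit. That limit flags about 1 in 20 for independent, normally distributed values. FPKM need not be normal, the genes are not independent, and many were named by their p in these tumors. Whether the flags exceed chance is therefore not known. Replicate 2 of cage group 5 accounted for 8. It was high in WWTR1 (27.7 FPKM), LATS2 (29.9), PER1 (14.1), NR1D1 (6.94), CHORDC1 (39.3), MT1E (339) and MT2A (996) and low in VGLL3 (95.3). Replicate 4 of cage group 5 accounted for 7. It was low in TEAD4 (26.1 FPKM), PROSER2 (19.1), PTPN1 (40.3), CCNB1 (31.5) and the deR score (0.166), and high in LAMA5 (441) and the 24 h response score (-0.305).

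Replicate 2 of cage group 4 was high in FOSL2 (169 FPKM), DUSP4 (1.59) and CXCL2 (24.2) and low in MMP16 (4.02). Replicate 3 of cage group 4 was high in AXL (211 FPKM), KRT14 (24.0) and the deR score (0.229). The others were PFKFB3 in replicate 5 (5.66) and MYL11 in replicate 1 (0.950) of cage group 4, and IFI44L in replicate 5 (12.1) and CPT1A in replicate 3 (10.1) of cage group 5.

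For 8 genes the difference between cage groups 5 and 4 departed from that between vehicle cage groups 2 and 3 by the test of the difference itself (adjusted p under 0.05, limma). On the log2 scale it was -1.57 for USP2, -0.88 for LETM1, -0.85 for GFOD1, -0.48 for LAMA5 and -0.42 for ARID1A, and 2.24 for FBXO32, 1.92 for AP4S1 and 0.71 for FNIP1. Taken this way, the test adds the gap of vehicle cage groups 3 minus 2 to that of cage groups 5 minus 4. Gaps of the same sign therefore add up, as for FBXO32 and FNIP1, which were called higher in vehicle cage group 3. With the vehicle cage groups taken in the opposite order 0 genes passed, with 1000 at an unadjusted p under 0.05. That opposite order follows the numbering runs of the sample titles, but the labels do not say which order matches.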

How the results depend on the processing

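The 2 genes called between cage groups 5 and 4 became 0 with only the 10 tumors fitted, 0 with all 94 libraries, where 142 genes instead of 874 had an unadjusted p under 0.05, and 1 (PTPN1) without the filter on low values. The count was 2 with 91 libraries, a pseudocount of 0.1, a filter at an FPKM of 5, quantile normalization, median-ratio scaling or a fit that is not robust, and 0 to 3 when 1 tumor was left out. The 6 genes between vehicle cage groups 3 and 2 became 1 with only 10 libraries, 0 with 94, 42 with 91, 11 with a filter at an FPKM of 5, and 1 to 61 with 1 tumor left out, 61 without replicate 1 of cage group 3. With alternatives added after the counts were seen, quantile normalization gave 2 genes at 100 mg/kg in place of 0, and leaving out 1 tumor gave 3 to 30 in cage group 5 against vehicle, 0 to 2 in cage group 4, and 1 to 8 for the difference from vehicle 2 minus 3. The deR difference ranged from -0.0187 to -0.00925 with 1 tumor left out and kept its direction. The 24 h response score difference ranged from 0.0922 to 0.281. Of the list medians, 14 of 23 changed sign with 1 tumor left out, among them inflammatory cytokines (-0.45 to 0.04), G2/M (-0.01 to 0.13), MAPK feedback (-0.04 to 0.19), immediate early (-0.10 to 0.02) and clock genes (-0.14 to 0.01). Those that kept theirs but moved by over 1.5 times were positive effectors (-0.09 to -0.04), glucocorticoid (-0.36 to -0.14), p53 (0.12 to 0.25), G1/S (-0.13 to -0.05), TGF-beta (-0.18 to -0.06), heat shock (0.02 to 0.08) and mesothelial genes (0.00 to 0.07).

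No alternative other than leaving out a tumor changed the direction of a named gene. Leaving out 1 tumor did so for 16 of 138, none of them called: TEAD1 (-0.0214 to 0.0593), YAP1 (-0.0707 to 0.0187), ITGAM (-0.0329 to 0.383), LUM (-0.0691 to 0.364), VWF (-0.157 to 0.108), CSF1R (-0.115 to 0.245), KRT14 (-0.0397 to 0.63), CDH5 (-0.202 to 0.0541), ADAMTS15 (-0.186 to 0.0107), PFKFB4 (-0.0395 to 0.284), HKDC1 (-0.0819 to 0.159), MAFF (-0.0708 to 0.306), MT1E (-0.0067 to 0.199), MT2A (-0.4 to 0.0758), SESN2 (-0.167 to 0.0314) and GADD45A (-0.12 to 0.0212). BTN3A2 passed without replicate 4 of cage group 4 (0.65). No paired analysis was possible because the labels give no replicate numbers. The causes of these changes were not tested, and read depth is unknown.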
